A study of Mus musculus with 6 samples.

Results

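Small Cajal body RNAs (scaRNAs) are noncoding RNAs of the cell nucleus, and the transcripts described here are those that GENCODE vM21 annotates with the gene type scaRNA. They were found by matching transcript identifiers to that annotation, and Mir1839 and Gm26083, which carry the same gene type, were left out by rule. This gave 32 of the 5880 transcript rows of the deposited noncoding RNA table, under 27 gene symbols. Of these symbols 7 begin with Scarna and 20 are predicted genes with a Gm number. RNA was measured by small RNA sequencing of exosomes, vesicles that cells release into the medium. All 6 libraries came from P19, a mouse embryonal carcinoma line. The UD-P19 group (replicates 1 to 3) was undifferentiated cells kept in α-MEM with N2 supplement while the medium was conditioned. The P19N group (replicates 4 to 6) was neurons obtained from the same line with retinoic acid and kept in neurobasal medium with B27 and N2 supplements, in cultures 8, 10 and 12 days old, 1 library per age. The study names these preparations biological replicates. Its methods collect the medium on day 8 and on alternate days after it, so whether the P19N libraries came from separate cultures cannot be told. P19N cultures, unlike UD-P19, were also exposed to 5-fluorouridine and uridine to stop cell division on day 3, and on day 8 after the medium of that day was collected, per the study's methods. Culture age and replicate cannot be told apart in this design, nor can cell state, medium and this exposure.

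The scaRNAs reside in Cajal bodies, nuclear bodies in which the small nuclear RNAs (snRNAs) of the spliceosome mature. Those with a known target guide the chemical modification of chosen snRNA nucleotides by pairing with the snRNA. Box C/D scaRNAs guide 2′-O-methylation, box H/ACA scaRNAs guide the conversion of uridine to pseudouridine, and some scaRNAs hold both kinds of domain. Most are processed out of introns of other genes, and in this annotation 18 of the 27 symbols lay in an intron of a protein-coding gene on the same strand. The short CAB box, which retains H/ACA scaRNAs in the Cajal body, is often written TGAG in DNA letters, and H/ACA RNAs end with ACA followed by 3 bases.

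The sequences below are read 5′ to 3′ from the GENCODE vM21 transcripts (build GRCm38). Capitals mark every TGAG and the ACA that stands 3 bases before the 3′ end. The first 3 are near-identical copies from different genes, shown because reads from one can match another. The others are Gm23751, the largest contributor to the scaRNA difference outside these copies, Scarna8, a named H/ACA scaRNA whose call held in all alternatives, and Gm22767, the row called lower. Gm25820-202 lies at chr3:88693930-88694057 (+ strand, intron of Khdc4), Gm23370-202 at chr1:127331813-127331941 (+ strand, intron of Mgat5) and Gm22897-201 at chr5:4985111-4985238 (- strand, intron of Cdk14). Gm23751-201 at chr6:125121724-125121859 (+ strand, intron of Chd4) and Scarna8-201 at chr4:86586453-86586583 (- strand, intron of Haus6) rose, and Gm22767-201 at chr4:132838383-132838547 (- strand, intron of Ppp1r8) fell.
Gm25820-202: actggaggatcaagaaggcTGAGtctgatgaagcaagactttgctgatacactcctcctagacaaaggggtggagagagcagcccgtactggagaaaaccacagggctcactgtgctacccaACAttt
Gm23370-202: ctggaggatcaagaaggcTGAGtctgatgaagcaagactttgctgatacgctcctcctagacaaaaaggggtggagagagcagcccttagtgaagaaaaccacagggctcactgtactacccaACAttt
Gm22897-201: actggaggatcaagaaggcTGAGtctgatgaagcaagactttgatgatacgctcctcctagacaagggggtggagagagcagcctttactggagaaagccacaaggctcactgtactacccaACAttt
Gm23751-201: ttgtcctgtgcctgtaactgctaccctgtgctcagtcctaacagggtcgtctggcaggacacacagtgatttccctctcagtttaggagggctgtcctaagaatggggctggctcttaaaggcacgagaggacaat
Scarna8-201: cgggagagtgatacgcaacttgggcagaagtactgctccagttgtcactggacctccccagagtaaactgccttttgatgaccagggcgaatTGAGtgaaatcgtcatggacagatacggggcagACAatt
Gm22767-201: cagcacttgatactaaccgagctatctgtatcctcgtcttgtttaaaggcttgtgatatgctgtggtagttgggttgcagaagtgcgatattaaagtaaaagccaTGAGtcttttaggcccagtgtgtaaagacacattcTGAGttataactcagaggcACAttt

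The libraries held 454499 to 762575 counts in UD-P19 and 588646 to 887460 in P19N. The snRNAs took 4.76% to 7.38% of the counts in UD-P19 and 48.2% to 52.8% in P19N, and Gm42418 alone took 49.1% to 65.9% and 16.3% to 18.2%. The share of counts listed as unique, read here as counts of reads that match 1 transcript only, was 62.1% to 78.0% in UD-P19 and 32.1% to 38.5% in P19N. Because these shares moved with the groups, levels are given as CPM (counts per 1000000 of the library size scaled by the trimmed mean of M values, TMM), and the part these shares had in any scaRNA difference was not tested. Each library was made from the same mass of RNA per the study's methods, so the counts give shares of RNA, and more exosomes and more RNA per exosome cannot be told apart from them. Of the cell type markers, 6 of 7 neuronal genes (Meg3, Miat, Mir124-2hg, Mir124a-1hg, Mir9-3hg and Rian) and 3 of 7 pluripotent genes (Lncenc1, Mir17hg and Mir302b) were listed. Their summed level was 22.0 to 205.7 CPM in UD-P19 and 89.1 to 150.4 CPM in P19N for the neuronal genes. None of their 9 tested rows was called by edgeR or DESeq2, and 0 had an unadjusted p under 0.05. The pluripotent genes summed to 24.8 to 58.8 CPM in UD-P19 and 5.28 to 8.35 CPM in P19N, and their 1 tested row, Mir17hg, was called lower.

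scaRNAs were more abundant in P19N exosomes than in UD-P19 exosomes, and the counts listed on 1 predicted gene, Gm25820, made the largest contribution to the difference. The scaRNA counts were 471, 399 and 542 in UD-P19 and 3907, 3248 and 1352 in P19N. As a share of all counts this was 0.104%, 0.0566% and 0.0711% in UD-P19 against 0.440%, 0.427% and 0.230% in P19N. The groups did not overlap, and the lowest P19N library was the 12-day culture. The summed level was 840 ± 344 CPM (SD, n = 3) in UD-P19 and 3586 ± 1484 CPM (SD, n = 3) in P19N, a ratio of 4.27. The ratio of the mean shares of counts was 4.74, and it was 2.28 with Gm42418 and 9.08 with the snRNAs taken out of the total.

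**Figure D1:**
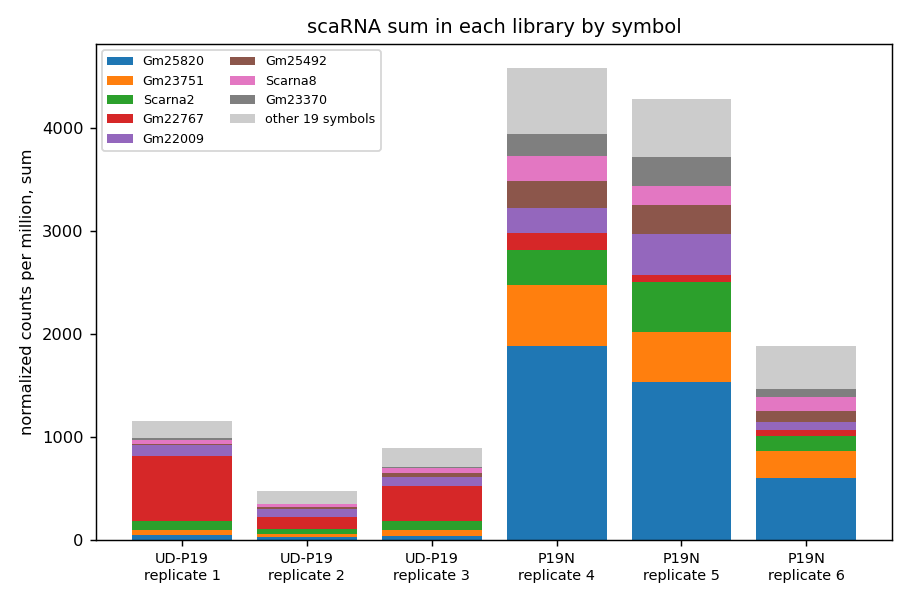
Stacked bars give the summed scaRNA level of each library in CPM, coloured by gene symbol. The red block of Gm22767 fills 23.8% to 54.8% of the UD-P19 bars, and the blue block of Gm25820 fills 32.1% to 41.0% of the P19N bars.

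No test was run on the sum. The counts listed on the 2 rows of Gm25820, most of which match other rows too, contributed 47.5% of the difference in summed CPM, Gm23751 14.5%, Scarna2 9.19%, Gm25492 7.09%, Gm23370 6.67%, Scarna8 5.52% and Gm22009 5.29%. Gm22767 worked against it with -9.67%. An alternative chosen after seeing the data kept only the fuller row of each symbol. It drops the counts on the other row, which were not all the same reads, as the counts of the copies below show. In it Gm25820 contributed 33.5% and Gm23751 19.8%, and the ratio of the summed CPM was 3.46. Gm23370, also listed as 2 rows, then contributed 4.44%, below Scarna8 at 7.53% and Gm22009 at 7.22%. The make-up of the class therefore differed between the groups. Gm22767 held 38.9% ± 15.5 (SD, n = 3) of the scaRNA level in UD-P19 and 2.68% ± 0.862 (SD, n = 3) in P19N, whereas Gm25820 held 4.31% ± 0.616 and 36.3% ± 4.45. Without Gm25820 the sum was 805 ± 333 CPM in UD-P19 and 2246 ± 839 CPM in P19N, a ratio of 2.79, and without Gm22767 it was 478 ± 104 CPM and 3490 ± 1442 CPM, a ratio of 7.30 (SD, n = 3 each). Without either gene the 3 UD-P19 libraries lay at 336 to 518 CPM and the 3 P19N libraries at 1226 to 2674 CPM. The ratio of Gm25820 to Gm22767 counts within a library, which no scaling between libraries can move, was 0.0736, 0.211 and 0.101 in UD-P19 and 11.7, 20.1 and 11.7 in P19N. This pair sets the largest contributor against the only row called lower. Against Scarna2, which rose as well, the ratio of Gm25820 moved less, from 0.412 to 0.559 in UD-P19 to 3.21 to 5.44 in P19N.

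Of the 32 rows, 21 rows of 18 symbols held at least 15 counts over the 6 libraries and were tested with edgeR's quasi-likelihood test among 1286 transcripts. A row was called at a Benjamini-Hochberg adjusted p of at most 0.05. Called higher in P19N were 15 rows of 12 symbols, against 193 (15%) of all 1286 tested transcripts, and 1 row was called lower, against 9.02%. With each library left out, 9 to 17 rows were called higher and 0 to 1 lower, and the share of all tested transcripts was not taken for these fits. The groups did not overlap in 17 of the 21 rows, against 42.0% of all tested transcripts. The median log2 fold change of the tested scaRNA rows was 2.41 and that of all tested transcripts 0.21. Of the tested rows 3 held under 7.5 counts in UD-P19, so they passed mainly through P19N, and of the remaining 18 rows 12 were called higher.

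**Figure D2:**
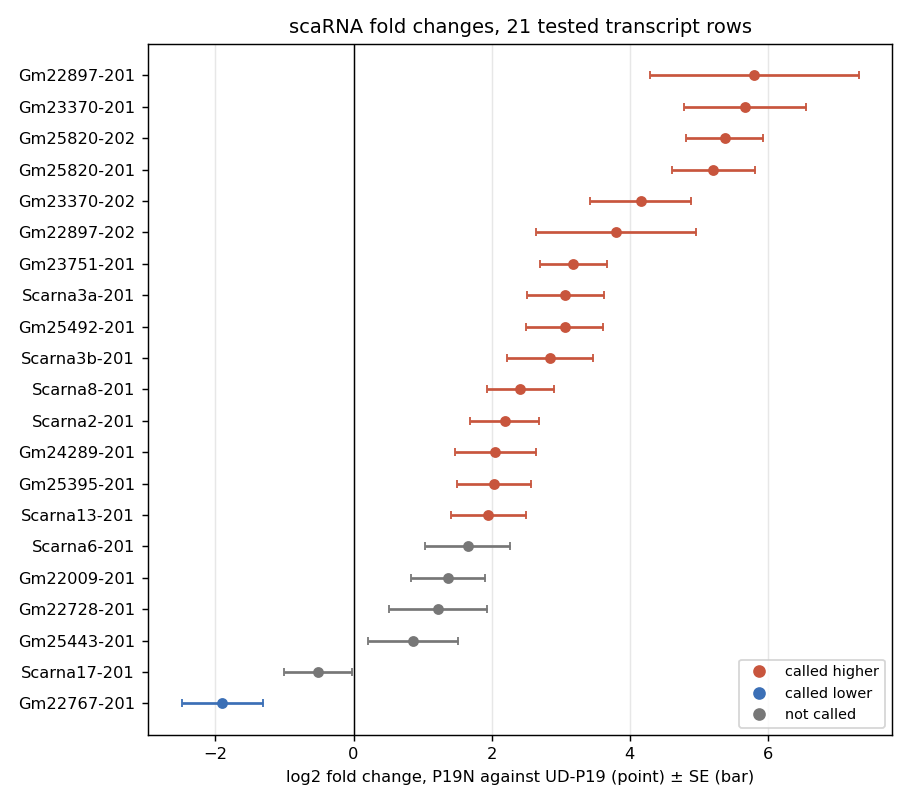
Points give the log2 fold change of P19N against UD-P19 for each of the 21 tested scaRNA rows and bars its SE, with colour for the edgeR call. The rows of Gm22897, Gm23370 and Gm25820 lie farthest to the right, and Gm22767 at -1.90 is the only row called lower.

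Among the groups of copies tested as sums, the Gm25820 family was called higher, and Scarna17 with Gm25443 was not called. The Gm25820 family takes in 9 rows of 5 symbols (Gm25820, Gm23370, Gm22897, Gm25058 and Gm22813). They are joined by pairs that are at least 90% identical over at least 80% of the longer transcript. Each row met this limit with Gm25820-202, but some pairs among the rest did not (Gm22813-201 and Gm22897-201 are 88.2% identical). Gm25820, Gm23370, Gm22897 and Gm22813 are each listed as 2 rows under separate gene identifiers, and the 2 rows of Gm25820 differ by 1 base at the 5′ end. Gm25820-202 counted 8, 12 and 10 in UD-P19 and 825, 595 and 230 in P19N, with a log2 fold change of 5.37 ± 0.56 (SE, adjusted p = 2.702e-06, edgeR). Gm25820-201 counted 11, 8 and 11 against 775, 568 and 204, with a log2 fold change of 5.20 ± 0.60 (SE, adjusted p = 9.351e-06, edgeR). Every P19N library was far above every UD-P19 library, and both calls held in all alternatives in which the rows were tested. Among the P19N libraries the 8-day culture was highest and the 12-day culture lowest for both rows.

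The reads of this family could rarely be placed on 1 row. Of the 3257 counts on Gm25820, 2.76% were unique, and all 90 of them fell on Gm25820-202, with 1 in UD-P19 and 89 in P19N. Gm25820-202 shares 93.8% of its aligned bases with Gm23370-202, with a longest common stretch of 49 bases, and 93.8% with Gm22897-201, with a stretch of 43 bases. It is not stated how a read that matches several rows was counted. Gm25820-201 lies within Gm25820-202, so a read that matches it also matches the longer row. Yet in UD-P19 replicates 1 and 3 it counted 11 each, against 8 and 10 on Gm25820-202. Gm23370-202, which lies within Gm23370-201, counted 3, 1 and 5 in UD-P19 against 2, 0 and 1. Shared reads were therefore not all counted on both rows of a symbol. With so few unique counts the order of the copies is uncertain. Summed to 1 value, the family counted 24, 21 and 28 in UD-P19 and 1799, 1410 and 495 in P19N, with a log2 fold change of 5.19 ± 0.55 (SE, adjusted p = 3.984e-06, edgeR). Without the whole family the scaRNA sum was still 447 to 1095 CPM in UD-P19 against 1193 to 2477 CPM in P19N, a ratio of 2.55.

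Gm23370 and Gm22897 are the other copies that passed the filter, and both were almost absent from UD-P19. Gm23370-202 counted 3, 1 and 5 in UD-P19 and 88, 108 and 28 in P19N (log2 fold change 4.15 ± 0.74 SE, adjusted p = 7.573e-04, edgeR). Gm23370-201 counted 2, 0 and 1 against 92, 109 and 26, a ratio of 60.5 with a 95% exact counting interval of 20.4 to 295 (adjusted p = 2.591e-04, edgeR). Gm22897-202 counted 0, 0 and 1 against 7, 13 and 3 (adjusted p = 0.0235, edgeR). Its ratio was 18.4 with an interval of 2.98 to 757, and 6.13 against a floor of 3 counts over the UD-P19 group. Gm22897-201 had no count in UD-P19 and 9, 12 and 2 in P19N, with an exact 95% lower limit of 4.59 on the ratio (adjusted p = 0.0121, edgeR). Against the same floor of 3 counts its ratio was 6.13. These intervals and the floor cover counting error only. Both Gm23370 calls held in every alternative in which the rows were tested, with log2 fold changes of 3.48 to 4.54 for Gm23370-202 and 4.99 to 6.51 for Gm23370-201 when a library was left out, the lowest of each without P19N replicate 5. No library of one group overlapped the other, but the Gm22897 rows rested on 23 P19N counts each. Gm22897-202, with a log2 fold change of 3.80, was not called without UD-P19 replicate 1 (3.27, adjusted p = 0.0662) or without P19N replicate 4 (3.685, adjusted p = 0.0761). DESeq2 did not call it either (3.85, adjusted p = 0.0538). Gm22897-201 did not pass the filter without P19N replicate 4, and neither Gm22897 row passed it without P19N replicate 5. With the 2 rows of a symbol summed, Gm22897 had a log2 fold change of 4.79 ± 1.09 (SE, adjusted p = 0.00139, edgeR). This sum still held 1 count in UD-P19, against 46 in P19N. Summed in the same way, Gm23370 had a log2 fold change of 4.74 ± 0.72 (SE, adjusted p = 1.122e-05, edgeR).

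**Figure D3:**
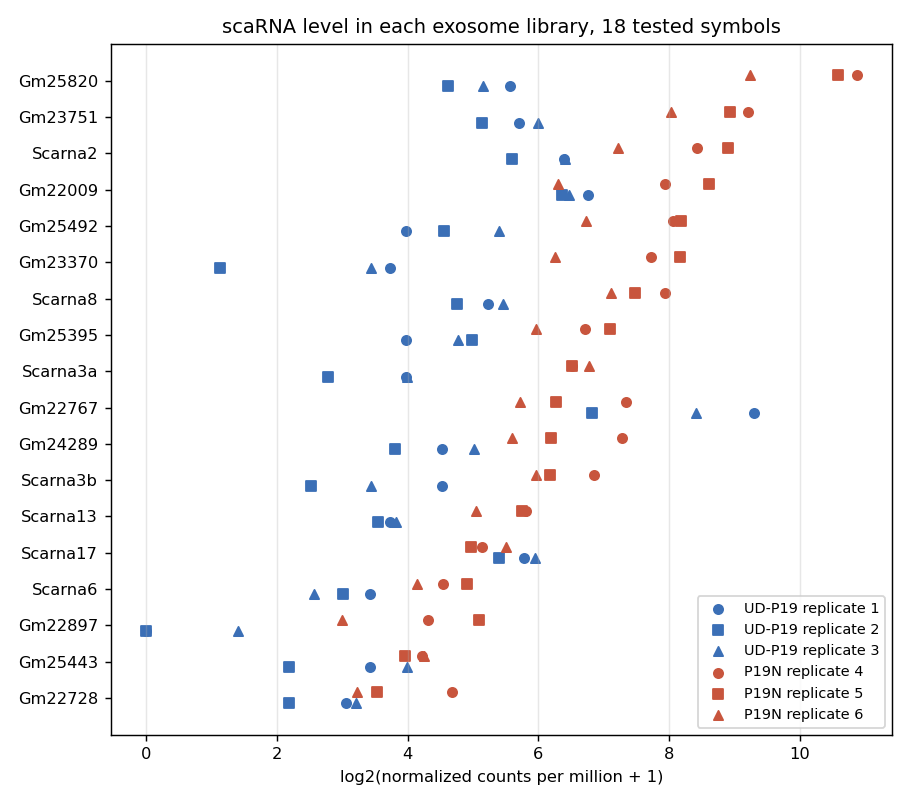
Each point is 1 library, with the level on a log2(CPM + 1) axis, UD-P19 in blue and P19N in red, for the 18 tested symbols ordered by their P19N mean. Gm25820 spans the widest gap between groups, while the groups overlap for Gm22009, Scarna17, Gm25443 and Gm22767.

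Among the named H/ACA scaRNAs all 4 tested rows, Scarna8, Scarna3a, Scarna3b and Scarna13, were called higher in P19N, against 15% of all tested transcripts. The calls of Scarna3b and Scarna13 were lost in the alternatives given below. Scarna8, which guides pseudouridylation of U2 snRNA, counted 15, 22 and 26 in UD-P19 and 208, 135 and 99 in P19N. Its level was 35.2 ± 8.56 CPM against 187 ± 53.9 CPM (SD, n = 3), with a log2 fold change of 2.41 ± 0.48 (SE, adjusted p = 0.00201, edgeR). All its counts were unique, the groups did not overlap, and its call held in all 22 alternatives.

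Scarna3a counted 6, 5 and 9 in UD-P19 and 77, 69 and 78 in P19N, with 96.7 ± 10.3 CPM in P19N (SD, n = 3), so the 3 P19N libraries lay close together. Its log2 fold change was 3.06 ± 0.56 (SE, adjusted p = 9.909e-04, edgeR). Its relative Scarna3b counted 9, 4 and 6 against 98, 54 and 44, with a log2 fold change of 2.84 ± 0.62 (SE, adjusted p = 0.00362, edgeR). Both had every P19N library above every UD-P19 library. Both also overlap annotated miRNA hairpins on the same strand, Mir1843b within Scarna3a and Mir1843a within Scarna3b. Mir1843b itself counted 9, 15 and 5 against 309, 225 and 233, and Mir1843a counted 3, 2 and 5 against 80, 46 and 39, and 84.7% of the Mir1843b counts but none of the Mir1843a counts were unique. The part of the hairpins' reads in the counts of Scarna3a and Scarna3b was not tested. Scarna3b also shares 124 of its 139 bases with the overlapping transcript CT030161.1, which counted 0, 1 and 0 against 9, 9 and 10. The unique counts, 49.2% of Scarna3a and 13.0% of Scarna3b, gave Scarna3a a log2 fold change of 3.05 ± 0.50 (SE, adjusted p = 0.00150, edgeR). On its 28 unique counts Scarna3b was not called (log2 fold change 1.16 ± 0.89 SE, adjusted p = 0.365, edgeR), nor on its exact counts (log2 fold change 2.16, adjusted p = 0.0501).

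Scarna13, which lies in an intron of the noncoding host gene Snhg10 and guides modification of U2 and U5 snRNAs, counted 5, 9 and 8 in UD-P19 and 47, 40 and 23 in P19N. Its log2 fold change was 1.95 ± 0.54 (SE, adjusted p = 0.0144, edgeR). The groups did not overlap, but the call was lost without UD-P19 replicate 1 (log2 fold change 1.68, adjusted p = 0.0657), P19N replicate 4 (1.61, adjusted p = 0.0877) or P19N replicate 5 (1.62, adjusted p = 0.0808). The call was also lost with no count filter, at a log2 fold change of 1.91 (adjusted p = 0.0658).

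Of the 2 named box C/D scaRNAs 1 was called higher, against 15% of all tested transcripts, and none lower, against 9.02%. Scarna2, a long box C/D scaRNA that guides methylation of U2 snRNA, counted 34, 40 and 51 in UD-P19 and 294, 362 and 107 in P19N. Its level was 71.6 ± 21.1 CPM against 324 ± 165 CPM (SD, n = 3), with a log2 fold change of 2.19 ± 0.50 (SE, adjusted p = 0.00500, edgeR). The groups did not overlap, and without P19N replicate 5, the highest library, the log2 fold change was 1.56 and the adjusted p 0.0806. Scarna17, which guides methylation of the minor spliceosome's U12 snRNA, counted 22, 35 and 37 against 29, 23 and 32, and its groups overlapped. Its log2 fold change was -0.52 ± 0.49 (SE, adjusted p = 0.448, edgeR). A stretch of 70 bases is identical between Scarna17 and the predicted gene Gm25443, which had no unique count and counted 4, 3 and 9 against 15, 11 and 13 (log2 fold change 0.87 ± 0.65 SE, adjusted p = 0.335, edgeR). On its unique counts Scarna17 had a log2 fold change of -1.10 ± 0.44 (SE, adjusted p = 0.0880, edgeR). Summed, the pair had a log2 fold change of -0.21 ± 0.48 (SE, adjusted p = 0.780, edgeR).

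Scarna6, a scaRNA with both kinds of domain that guides modification of U5 snRNA, counted 4, 6 and 3 in UD-P19 and 19, 22 and 12 in P19N. The groups did not overlap, but the row was not called (log2 fold change 1.65 ± 0.61 SE, adjusted p = 0.0615, edgeR). It was called in 7 alternatives, with adjusted p between 0.0164 (without UD-P19 replicate 2) and 0.0490 (edgeR's own expression filter), among them unique counts (0.0482), exact counts (log2 fold change 2.59, adjusted p = 0.0267) and without P19N replicate 6 (0.0469). Its neighbour Gm25395 lies in the same host gene, Atg16l1, and counted 6, 26 and 16 against 89, 103 and 44. Gm25395 was called higher (log2 fold change 2.03 ± 0.53 SE, adjusted p = 0.0102, edgeR). That call was lost without UD-P19 replicate 1 (log2 fold change 1.515, adjusted p = 0.0784) or UD-P19 replicate 3 (1.83, adjusted p = 0.0507). It was also lost without P19N replicate 4 (1.78, adjusted p = 0.0693) or P19N replicate 5 (1.515, adjusted p = 0.112). On exact counts the log2 fold change was 2.88.

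Among the predicted scaRNAs outside the Gm25820 family, Gm23751 made the largest contribution to the difference. Gm23751, in an intron of Chd4, counted 21, 29 and 38 in UD-P19 and 504, 372 and 187 in P19N, and all its counts were unique. Its level was 49.5 ± 14.3 CPM against 448 ± 170 CPM (SD, n = 3), with a log2 fold change of 3.18 ± 0.48 (SE, adjusted p = 2.099e-04, edgeR). Each P19N library lay above each UD-P19 library, and the call held in all 22 alternatives, with a log2 fold change of 3.93 on exact counts.

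Gm25492, in an intron of Bud23, counted 6, 19 and 25 against 227, 220 and 76, with a log2 fold change of 3.05 ± 0.56 (SE, adjusted p = 0.00106, edgeR), and its call also held in all 22 alternatives, with a log2 fold change of 2.06 on exact counts (adjusted p = 0.00398). Gm24289, in an intron of Tipin, counted 9, 11 and 19 against 131, 55 and 34, with a log2 fold change of 2.05 ± 0.59 (SE, adjusted p = 0.0172, edgeR). Neither overlapped between groups. For Gm24289 10.4% of the counts were exact, read here as matches without a mismatch, against 33.5% for Gm25492 and 78.4% for Gm25820. On exact counts Gm24289 was not called (log2 fold change 1.09, adjusted p = 0.298). Nor was it called without P19N replicate 4, its highest library (log2 fold change 1.25, adjusted p = 0.185), UD-P19 replicate 1 (1.75, adjusted p = 0.0670) or P19N replicate 5 (1.93, adjusted p = 0.0634).

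Gm22767 was the only scaRNA called lower in P19N. It counted 258, 95 and 207 in UD-P19 and 137, 58 and 37 in P19N, all of them unique. In normalized counts this was 632, 112 and 342 CPM against 161, 76.5 and 51.5 CPM, so the highest P19N library (8-day culture) exceeded the lowest UD-P19 library (replicate 2) and the groups overlapped. The log2 fold change was -1.90 ± 0.59 (SE, adjusted p = 0.0266, edgeR). The call was lost without UD-P19 replicate 1 (log2 fold change -1.53, adjusted p = 0.0647), without P19N replicate 5 (-1.98, adjusted p = 0.0721) and without P19N replicate 6 (-1.58, adjusted p = 0.110). The overlap lay between P19N replicate 4 and UD-P19 replicate 2. Without P19N replicate 4 the log2 fold change was -2.64 and the row was called (adjusted p = 0.0156). It was also called without UD-P19 replicate 2, at a log2 fold change of -2.19 (adjusted p = 1.273e-04, edgeR).

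Gm22009 and Gm22728 were not called. Gm22009, in an intron of Kpna4, counted 44, 69 and 53 in UD-P19 and 208, 296 and 56 in P19N, and the 12-day culture, at 77.9 CPM, lay below all 3 UD-P19 libraries, at 81.6 to 107.8 CPM. Its log2 fold change was 1.37 ± 0.53 (SE, adjusted p = 0.0746, edgeR), and it was 1.80 without P19N replicate 6 (adjusted p = 0.0164) but 0.55 without P19N replicate 5 (adjusted p = 0.568). Without UD-P19 replicate 2 it was also called (log2 fold change 1.40, adjusted p = 0.0163), as it was under edgeR's own expression filter (adjusted p = 0.0258), a minimum total of 60 counts (0.0240), scaling by total counts only (0.0488) and on exact counts (0.0279). Gm22728, in an intron of G3bp2, counted 3, 3 and 5 against 21, 8 and 6 (log2 fold change 1.23 ± 0.71 SE, adjusted p = 0.206, edgeR), and without P19N replicate 4 its log2 fold change was 0.42.

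Levels can be compared between members only per length, and the order changed between the groups. In UD-P19 the highest mean was that of Gm22767, with 219 ± 158 CPM per 100 nt, followed by Scarna17 with 66.0 ± 12.6 and Gm23751 with 36.4 ± 10.5 CPM per 100 nt (SD, n = 3). The difference between Gm22767 and Scarna17 was smaller than the SD of Gm22767. In P19N the order was Gm25820 with 1046 ± 516, Gm23751 with 329 ± 125, Gm25492 with 171 ± 77.8, Gm23370 with 147 ± 82.4 and Scarna8 with 143 ± 41.1 CPM per 100 nt (SD, n = 3). The last 3 of these did not differ beyond their spread. The Gm25820 and Gm23370 values each sum 2 rows with few unique counts, so the place of Gm23370 in this order is uncertain. Gm22767 was at rank 11 in P19N, with 58.4 ± 34.8 CPM per 100 nt.

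The remaining 11 rows held at most 9 counts each, 38 counts in all, and were left out of the test. Gm22442 counted 1 in UD-P19 and 8 in P19N, Gm23119 counted 3 and 6, Gm24644 counted 1 and 7, and Gm25058 had none in UD-P19 and 6 in P19N. Gm22813, with 4 counts over 2 rows, Gm23505, with 1, and Gm26413, with 1 over 2 rows, were seen in P19N only. No count fell on Gm26039 or Gm26183. With the minimum total lowered to 5 counts, 4 of these rows were tested and 0 were called by edgeR (adjusted p 0.133 to 0.860, 1 row at an unadjusted p under 0.05), and with no filter 8 were tested and 0 were called (adjusted p 0.286 to 0.771, 1 row at an unadjusted p under 0.05). Between 18 and 20 symbols had a count in each UD-P19 library and 23 in each P19N library.

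**Figure D4:**
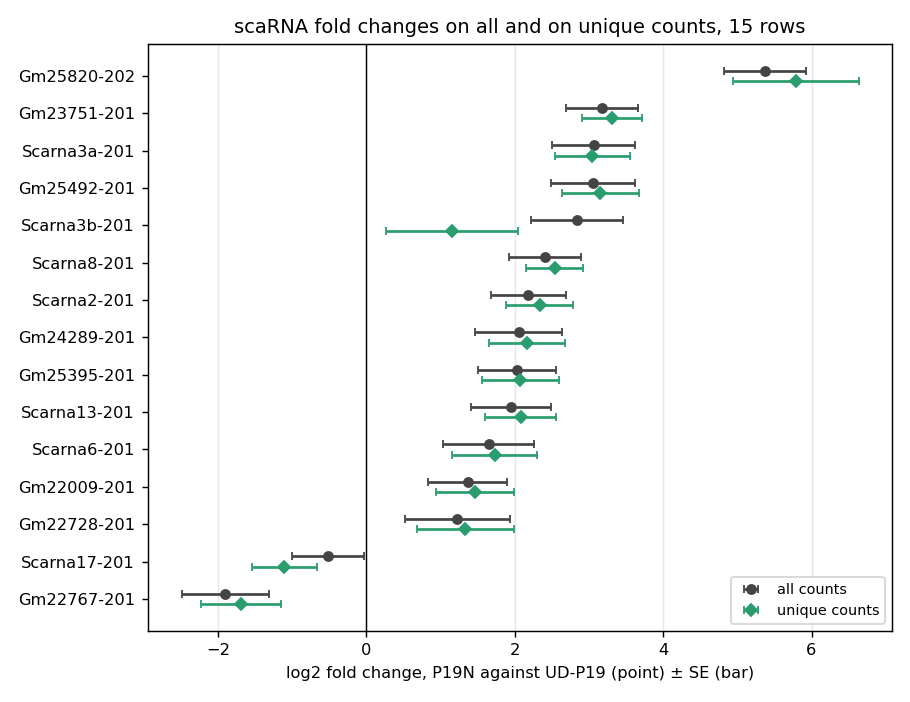
Points give the log2 fold change of P19N against UD-P19 with SE bars for the 15 scaRNA rows that passed the filter on unique counts, on all counts (dots) and on unique counts (diamonds). The values of the 2 fits lie farthest apart for Scarna3b, with 2.84 on all counts and 1.16 on unique counts, and for Scarna17, with -0.52 and -1.10.

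On unique counts 15 scaRNA rows passed the same filter, and 10 were called higher, against 14.3% of 510 tested transcripts, and 1 was called lower, against 10.6%. Of the rows called higher on all counts, 9 were called on unique counts too. Gm25820-202, with 1 unique count in UD-P19, and Scarna3b, with 7, passed this filter mainly through P19N. The 6 rows that could no longer be tested were 1 row of Gm25820, both of Gm23370 and of Gm22897, and Gm25443.

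Spliceosomal snRNAs, some of which scaRNAs modify, and the telomerase RNA Terc, which also holds a CAB box, made up a list of 10 rows, all tested. Called higher in P19N were 6 rows, against 15% of all tested transcripts, and the median log2 fold change was 1.74. None was called lower by edgeR or DESeq2, against 9.02% of all tested transcripts by edgeR, and 0 were lower at an unadjusted p under 0.05. Of the 6 rows, 4 were the U1 rows Rnu1a1, Rnu1b1, Rnu1b2 and Rnu1b6, which had log2 fold changes of 3.73 to 3.84 but no unique count, so they cannot be counted as separate genes. Rnu2-10, a U2 snRNA row that also had no unique count, rose by 2.25 ± 0.45 (log2, SE, adjusted p = 0.00188, edgeR), and the minor spliceosome's Rnu12 by 1.24 ± 0.38 (log2, SE, adjusted p = 0.0257, edgeR). Not called were the U5 snRNA Rnu5g (log2 fold change -0.02 ± 0.38 SE, adjusted p = 0.968, edgeR), Rnu11 (0.57 ± 0.44 SE, adjusted p = 0.347, edgeR), Rnu6 and Terc. By target, the 3 tested scaRNAs that guide U2 modification (Scarna2, Scarna8 and Scarna13) were called higher, against 15% of all tested transcripts, and the calls of Scarna2 and Scarna13 were lost without 1 library, as given above. Of the 2 with target U5, Scarna13 was called and Scarna6 was not, and Scarna17, with target U12, was not called.

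The GENCODE annotation classes Scarna10 and Scarna9 as snoRNAs, so the rule did not take them. Scarna10 counted 69, 102 and 80 in UD-P19 and 1562, 984 and 578 in P19N (log2 fold change 3.23 ± 0.44 SE, adjusted p = 5.736e-05, edgeR), and Scarna9 counted 13, 19 and 22 against 17, 9 and 6 (log2 fold change -1.14 ± 0.56 SE, adjusted p = 0.142, edgeR). Of the Scarna10 counts 29.6% were unique, and of the Scarna9 counts 100%.

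The letters of the box motifs were common among scaRNA rows and among other RNAs. ACA followed by exactly 3 bases closed 17 of the 32 rows (53.1%), against 24.1% of the 605 snoRNA rows of the table and 10.3% of the 1261 tested transcripts with a sequence. TGAG, searched on the transcript strand only, occurred in 26 rows (81.2%), against 73.9% and 66.6%. The box C letters TGATGA occurred in 59.4% against 58.4% and 41.1%, and the box D letters CTGA in 78.1% against 83.1% and 79.9%. These shares count each of the 9 near-copy rows of the Gm25820 family singly. All 9 held TGAG once, TGATGA and CTGA, and 7 ended with the ACA letters, so they raised each scaRNA share. Neither Gm23751, which rose, nor Scarna2 held TGAG, and Gm22767, which fell, held it 2 times and ended with the ACA letters. Length differed between these sets (median 130.5 nt in the scaRNA rows and 94 nt in the snoRNA rows), and a longer transcript holds a short word more often.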

How the data were processed

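Exosomal small RNA of 3 UD-P19 and 3 P19N samples was sequenced after preparation with the NEBNext small RNA kit. The authors trimmed the reads and derived counts per noncoding RNA transcript in CLC Genomics Workbench with default parameters, and the labels' processing notes name GRCm38 and edgeR. The deposited counts are raw whole numbers, and the deposited unique and exact counts are not defined further. Multi-match handling is not given in the sources used here. The deposited fold changes and p-values of the authors' own comparison were not used.

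Identifiers were matched without version to GENCODE vM21 (5777 matched, 103 not). Counts were tested in edgeR 4.0.16 (R 4.3.3) with the quasi-likelihood test, TMM scaling, library sizes from all rows, a minimum total of 15 counts, and Benjamini-Hochberg adjustment over 1286 transcripts. The SE is the log2 fold change divided by the square root of F. Copies were found with BLAST 2.17.0. The code was tested on simulated data. Alternatives covered filters, scaling, DESeq2 1.42.0, unique and exact counts, summed rows and each library left out. Every scaRNA was named, with all libraries shown for those tested. The members and lists were chosen with earlier results of these data known. The UD-P19 libraries are biological replicates per the study's methods, and the P19N libraries differ in culture age, so p-values measure the spread between these 6 samples.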

Additional observations from a re-analysis of the deposited data

How the results depend on the processing

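No paired analysis was possible because the groups share no replicate number. The count of 15 scaRNA rows called higher lay between 9 and 17 when each library was left out, and the lowest came without P19N replicate 5. The count of 1 row called lower lay between 0 and 1 when each library was left out, and it was 0 without UD-P19 replicate 1, P19N replicate 5 or P19N replicate 6. At an adjusted p of at most 0.01, 10 rows were called higher and 0 lower. Over the other filters, scalings and tests, 14 to 16 rows were called higher, and on unique counts, with rows of one symbol summed or with families summed (the last chosen after seeing the data, as were the exact counts, with 15) there were 10, 12 and 10, out of fewer tested. The difference in class share was 0.289 percentage points. It was 0.214 with 1 row per symbol (chosen after seeing the data, and dropping the counts on the other row), 0.156 without Gm25820, 0.383 with Mir1839 and Gm26083 added back, 0.665 with snRNAs out of the denominator, 0.481 on unique counts and 0.247 with Gm42418 out of the denominator. In the last case the ratio of the group means was 2.28 instead of 4.74, and the highest UD-P19 library (0.260%) lay just under the lowest P19N library (0.281%). The difference was 0.251 to 0.357 with each library left out. Among single log2 fold changes 411 kept direction and call, 21 lost the call, 13 gained it, and that of Gm25443 turned to -0.21 when summed with Scarna17. The median of all tested transcripts was 0.21 with TMM, 0.05 with DESeq2 size factors and -0.03 with TMM factors set without Gm42418. Few UD-P19 counts limit the copies of Gm25820.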
